A study of Sus scrofa with 12 samples.

Results

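Aquaporins, the membrane channels that carry water and in some members glycerol, were described in the jejunum of piglets around weaning. The genes were taken by name, and of 8 aquaporins looked for (AQP1, AQP3, AQP4, AQP5, AQP7, AQP8, AQP10 and AQP11) 5 were found among the 17049 gene names of the table, namely AQP3, AQP4, AQP5, AQP10 and AQP11. AQP1, AQP7 and AQP8 were not matched by name and were not analysed here. RNA-seq of poly(A) RNA had been made from the jejunum of 12 piglets in 4 groups of 3. Piglets were taken at 21 days of age, on the day of weaning (W, here called sucking), or at 28 days of age, 7 days after weaning (PW, here called weaned). Their sows ate a corn and soybean basal diet alone (Con) or with 300 mg/kg resveratrol, a plant polyphenol, from early gestation to the end of lactation (Res). The groups are thus W_Con, PW_Con, W_Res and PW_Res, and the labels name no resveratrol in the feed of the piglets. Weaning and a week of age went together in every comparison of 28 with 21 days, so that their parts cannot be told apart. The methods of the study describe 1 male piglet taken from each control litter at each age, while the public records describe piglets cross-fostered within each diet and differ from the paper in breed and housing, so that the litter structure of these libraries is not certain. Which libraries of both ages shared a litter, and the litters of the resveratrol piglets, are not given in the sources used here.

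Aquaporins sit in membranes as tetramers, and each subunit forms its own pore. The orthodox members pass water, the aquaglyceroporins (among them AQP3, AQP7 and AQP10) also pass glycerol and other small neutral solutes, and AQP11 belongs to an unorthodox subgroup found mainly in membranes inside the cell. In the small intestine water follows absorbed sodium, sugar and amino acids, partly through cells and partly between them. AQP3 lies in the basolateral membrane of epithelial cells, AQP10 was described in the absorptive epithelium of the upper small intestine, and AQP4 and AQP5 are best known from glia of the brain and from secretory glands.

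Values are FPKM, fragments scaled to exon length and to the mapped fragments of the library, which allow levels of different genes to be set side by side. Libraries differed in their makeup more than the group names imply. The summed level of markers of the distal small intestine and colon (10 of 12 listed genes were in the table) ran from 79.4 to 8400 FPKM in W_Con, from 80.5 to 6566 in W_Res, from 6851 to 10037 in PW_Con and from 129 to 24749 in PW_Res. FABP6, the ileal bile acid binding protein, made up most of the high sums and ran from 1.70 to 24110 FPKM over the 12 libraries, although all were labelled jejunum. The paper reports FABP6 as raised by weaning in the control piglets. The summed smooth muscle markers (8 of 10 in the table) ran from 671 to 3984 FPKM in W_Res and from 155 to 647 in the 9 other libraries, and W_Res 1 and W_Res 2 were highest with 1828 and 3984. In bulk tissue fewer cells of a type and less RNA per cell cannot be told apart, and this holds for each aquaporin below.

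Among the 5 aquaporins found by name, AQP3 was the most abundant and AQP11 the next, and AQP10 was the most variable of AQP3, AQP10 and AQP11. Where AQP1, AQP7 and AQP8 would stand is unknown, as they were not matched by name. AQP3 was present at 16.9 to 132 FPKM (median 78.4), which placed its median library at the 96.1 percentile of all gene names. AQP11 was present at 3.76 to 39.3 FPKM (median 26.0). AQP10 ran from 0.369 to 43.2 FPKM (median 2.56), a 117-fold span between libraries, compared with spans of 7.82-fold for AQP3 and 10.5-fold for AQP11. The order of AQP3 above AQP11 was found in 9 of 12 libraries and was turned around in W_Res 2, PW_Con 3 and PW_Res 3. AQP11 lay above AQP10 in 10 of 12 libraries, the exceptions being W_Res 2 and W_Res 3. In W_Res 2 the order of the 3 genes was AQP10, AQP11, AQP3, with 43.2, 24.7 and 16.9 FPKM. The ranges of AQP3 and AQP11 overlapped in W_Res, PW_Con and PW_Res but not in W_Con, and those of AQP11 and AQP10 overlapped in both sucking groups but not in the weaned groups.

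**Figure D1:**
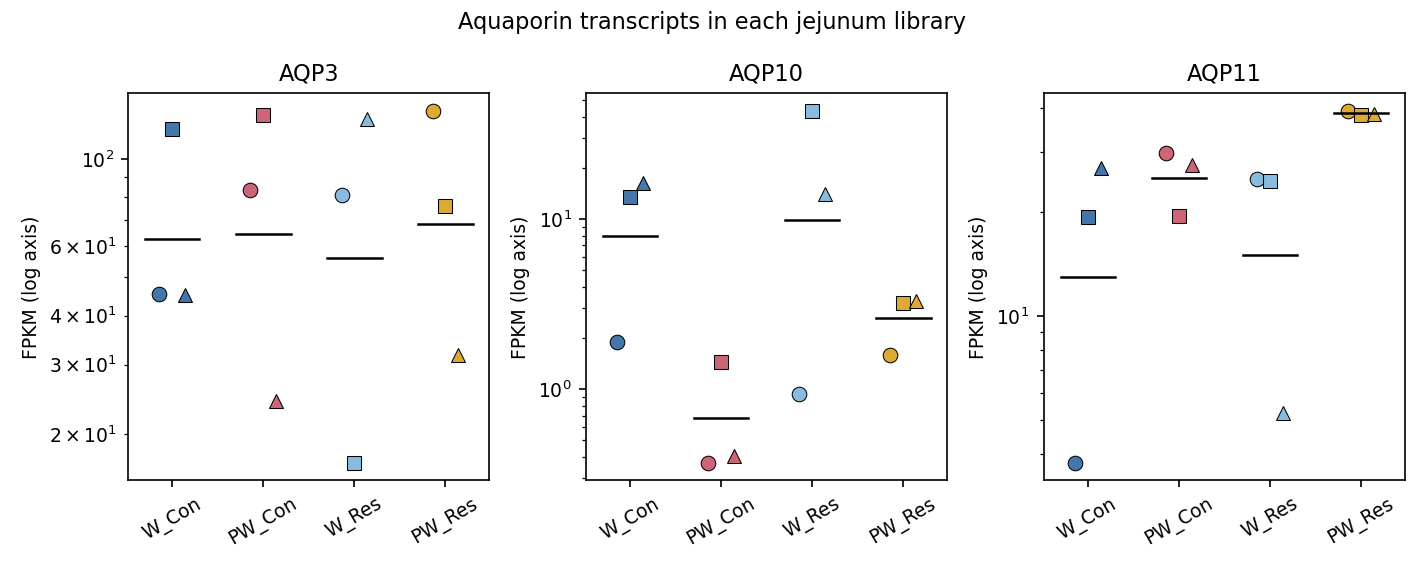
FPKM of AQP3, AQP10 and AQP11 (vertical log axes, a range of its own for each gene) in the 4 groups, with 1 point per library (circle, square and triangle for replicates 1, 2 and 3) and a bar at the group mean of log2(FPKM + 1), converted back to FPKM. AQP3 overlaps in the 4 groups, AQP10 is at 1.45 or below in PW_Con and at 1.90 or above in W_Con, and AQP11 lies between 38.4 and 39.3 in PW_Res.

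AQP10 is an aquaglyceroporin of the intestinal epithelium, and it was lower in weaned than in sucking piglets of control sows. It had 1.90, 13.4 and 16.3 FPKM in W_Con and 0.369, 1.45 and 0.403 FPKM in PW_Con. The groups did not overlap, with W_Con 1 nearest to the weaned libraries. The group means were 10.5 ± 7.63 and 0.740 ± 0.613 FPKM (SD, n = 3 each), a 14.3-fold lower mean after weaning. In limma on log2(FPKM + 1), a scale that understates changes of low genes, AQP10 fell by 2.42 (standard error 0.66, unadjusted P = 0.00760, adjusted p = 0.161 by Benjamini-Hochberg over 12611 genes). To meet the standard of the study a gene needs an absolute log2 fold change above 1 together with an unadjusted P under 0.05. AQP10 was the 1 aquaporin of 3 tested that met it in control litters, where 3.31% of all genes tested did and 1.82% did so downwards. The weaned libraries lay below the sucking libraries without overlap for 12.7% of all genes in this comparison. The exact two-sided permutation p was 0.1, the smallest that 3 against 3 libraries allow. Leaving out any 1 of the 6 libraries kept AQP10 within the standard, with log2 fold changes of -3.24 to -1.95.

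In litters of resveratrol sows AQP10 had 0.939, 43.2 and 14.1 FPKM in W_Res and 1.58, 3.23 and 3.32 FPKM in PW_Res. Here the groups overlapped, because W_Res 1 lay below all 3 weaned libraries. The log2 fold change was -1.59 (standard error 1.00, 95% interval -3.92 to 0.73, adjusted p = 0.508 in limma), which did not meet the standard. A linear model of the kind the Ballgown package fits turned it to 0.031. Without W_Res 1 the main value was -2.84 (adjusted p = 0.192 in limma) and met the standard. Without W_Res 2, the library with the highest AQP10, it was -0.58 (unadjusted P = 0.501 in limma), so that single libraries decided both the call and the size. These 2 libraries had the highest smooth muscle sums (1828 and 3984 FPKM) and the lowest and highest AQP10 of W_Res, and the part of muscle in the AQP10 levels was not tested. Over both litter sets AQP10 was 8.69-fold lower in the weaned piglets by group means, and it fell by 2.01 on the log2 scale (standard error 0.67, adjusted p = 0.168 in limma) against a median of -0.10 over all genes. The exact two-sided permutation p over both litter sets was 0.055, where the smallest possible value is 0.005. The weaning effects of both litter sets differed by 0.83 on the log2 scale (95% interval -2.13 to 3.78, adjusted p = 0.813 in limma), an interval too wide to tell whether AQP10 responded alike in them.

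The AQP10 levels were set beside markers of gut position. Some of these markers are also weaning results of the paper in the control piglets. The paper reports FABP6, NR1H4 and SLC51A as higher after weaning, and S100G and TRPV6 as lower. Gut position and a response to weaning thus cannot be told apart in these sums. The summed proximal markers (9 of 12 in the table, 8 tested) were at 72.0 to 123 FPKM in the 3 PW_Con libraries and at 210 to 2942 FPKM in the 9 others. S100G made up most of this sum, with a mean of 537 FPKM beside 33.1 for the next marker, CYBRD1. Other proximal markers were ordered differently, and GATA4 was at 1.69 to 3.33 FPKM in PW_Con but at 0.868, 0.772 and 0.758 FPKM in W_Con 1, W_Res 3 and PW_Res 1. The 2 highest AQP10 levels, in W_Res 2 and W_Con 3, were in the 2 libraries with the highest proximal sums (1336 and 2942 FPKM) and the lowest distal sums (80.5 and 79.4 FPKM). With weaning in control litters 2 of 8 proximal markers met the standard downwards (median log2 fold change -1.33). So did 4 of 12 villus markers (-1.16), while 1 of 9 distal markers met it upwards (1.17). In either direction 3.31% of all genes met the standard. The part of these markers in the AQP10 result was not tested. Among the 7 libraries with distal sums over 1000 FPKM, a division chosen after the data were seen, AQP10 was at 1.90 to 14.1 FPKM in the 3 sucking libraries and at 0.369 to 1.58 FPKM in the 4 weaned libraries. Among the 5 libraries with lower distal sums AQP10 was at 0.939 to 43.2 FPKM in the 3 sucking and at 3.23 to 3.32 FPKM in the 2 weaned libraries, both PW_Res. W_Res 1, the sucking library with the lowest AQP10, had a distal sum of 303 FPKM and is among these 5, so that the ranges on either side depend on where the line was drawn. How many of all genes separate the ages on either side was not counted.

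**Figure D2:**
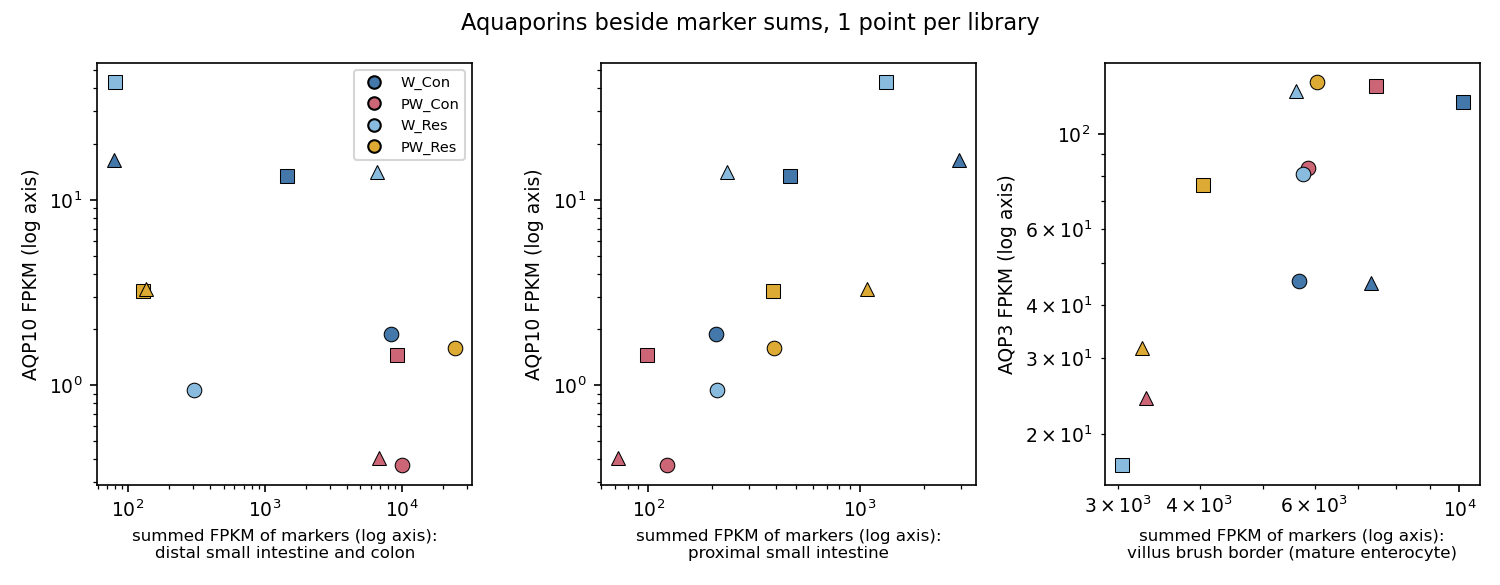
AQP10 against summed distal markers (left) and summed proximal markers (middle), and AQP3 against summed villus brush border markers (right), all in FPKM on log axes, with 1 point per library coloured by group (circle, square and triangle for replicates 1, 2 and 3). The PW_Con libraries have the 3 lowest proximal sums (72.0 to 123), and the 3 libraries lowest in AQP3 have the 3 lowest villus sums (3039 to 3309).

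Resveratrol in the sow diet was compared with the control diet at each age. At 28 days AQP10 had been at 0.369, 1.45 and 0.403 FPKM in PW_Con and at 1.58, 3.23 and 3.32 FPKM in PW_Res. All PW_Res libraries were above all PW_Con libraries, the closest pair being 1.45 and 1.58, as was the case for 5.44% of all genes. The means were 0.740 ± 0.613 and 2.71 ± 0.978 FPKM (SD, n = 3 each), 3.66-fold higher with resveratrol. AQP10 rose by a log2 fold change of 1.11 (standard error 0.31, unadjusted P = 0.00910, adjusted p = 0.394 in limma over 12380 genes). It was the 1 aquaporin of 3 that met the standard at 28 days, where 1.81% of all genes did and 0.856% did so upwards. The exact two-sided permutation p was again 0.1. The value was near the fold limit, and it dropped to 0.96, 0.98, 0.99 and 0.98 without PW_Con 1, PW_Con 3, PW_Res 2 or PW_Res 3. The pseudocount holds this value down at so low a level, and with pseudocounts of 0.1 and 0.01 it was 1.90 and 2.08 (unadjusted P = 0.0103 and 0.0108 in limma). With the spread estimated from all 12 libraries its adjusted p in limma was 0.818 and its unadjusted P was 0.269. The summed proximal markers, with S100G as the largest part, were at 390 to 1086 FPKM in PW_Res against 72.0 to 123 in PW_Con. Of the 8 tested proximal markers 3 met the standard upwards and none downwards. Their median log2 fold change was 1.48 against -0.07 over all genes. GATA4 was at 0.758 FPKM in PW_Res 1 and at 20.3 and 19.1 FPKM in PW_Res 2 and PW_Res 3. In PW_Con it was at 1.69 to 3.33 FPKM. The part of gut position in the AQP10 difference was not tested. At 21 days the AQP10 log2 fold change was 0.28 (95% interval -2.38 to 2.94), with overlapping groups.

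AQP11 is kept mainly in membranes inside the cell, such as the endoplasmic reticulum. In litters of resveratrol sows it had 25.0, 24.7 and 5.24 FPKM in W_Res and 39.3, 38.4 and 38.6 FPKM in PW_Res. The weaned libraries were all above the sucking libraries and lay within 1 FPKM of each other, while W_Res 3 stood far below the rest. The means were 18.3 ± 11.3 and 38.8 ± 0.479 FPKM (SD, n = 3 each), a 2.12-fold higher mean in weaned piglets. AQP11 rose by a log2 fold change of 1.31 (standard error 0.53, unadjusted P = 0.0400, adjusted p = 0.360 in limma over 13013 genes), against a median of -0.16 over all genes. AQP11 was the 1 aquaporin of 3 that met the standard in this comparison, where 4.75% of all genes did and 0.991% did so upwards. Groups without overlap and with the weaned libraries higher made up 3.93% of all genes. The exact two-sided permutation p was 0.1. Without W_Res 3 the log2 fold change was 0.62, inside the fold limit (adjusted p = 0.241 in limma). Leaving out PW_Res 1, 2 or 3 kept it at 1.30 to 1.31 but took the unadjusted P in limma to 0.0763 to 0.0820. With all 12 libraries in the fit the unadjusted P was 0.0639. Smooth muscle markers went the other way in this comparison, with 7 of 8 meeting the standard downwards (median log2 fold change -2.03). Their part in the AQP11 result was not tested.

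In control litters AQP11 had 3.76, 19.4 and 27.0 FPKM in W_Con and 29.7, 19.5 and 27.4 FPKM in PW_Con. The groups overlapped, and W_Con 1 was by far the lowest library. The log2 fold change was 0.91 (95% interval -0.54 to 2.35, adjusted p = 0.490 in limma), so that a rise was not detectable against the spread of the sucking piglets. Without W_Con 1 it was 0.13 (unadjusted P = 0.630 in limma), and over all single omissions it ran from 0.13 to 1.41. Over both litter sets AQP11 rose by 1.11 on the log2 scale (standard error 0.45, adjusted p = 0.229 in limma) with a 1.84-fold higher mean in weaned piglets. The exact two-sided permutation p over both litter sets was 0.01. With AQP10, it was 1 of 2 aquaporins of 3 tested that met the standard over both litter sets, where 1.42% of all genes did, 0.737% upwards and 0.683% downwards. The call was lost without W_Con 1 (log2 fold change 0.72) or W_Res 3 (0.77), the 2 low libraries. It was also lost without PW_Con 1, PW_Con 3, PW_Res 1 or PW_Res 2, where the log2 fold change was 1.05 to 1.11 and the unadjusted P in limma 0.0503 to 0.0601. The weaning effects of both litter sets differed by 0.40 (95% interval -1.57 to 2.37, adjusted p = 0.870 in limma). This comparison shares its libraries with those within each litter set.

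**Figure D3:**
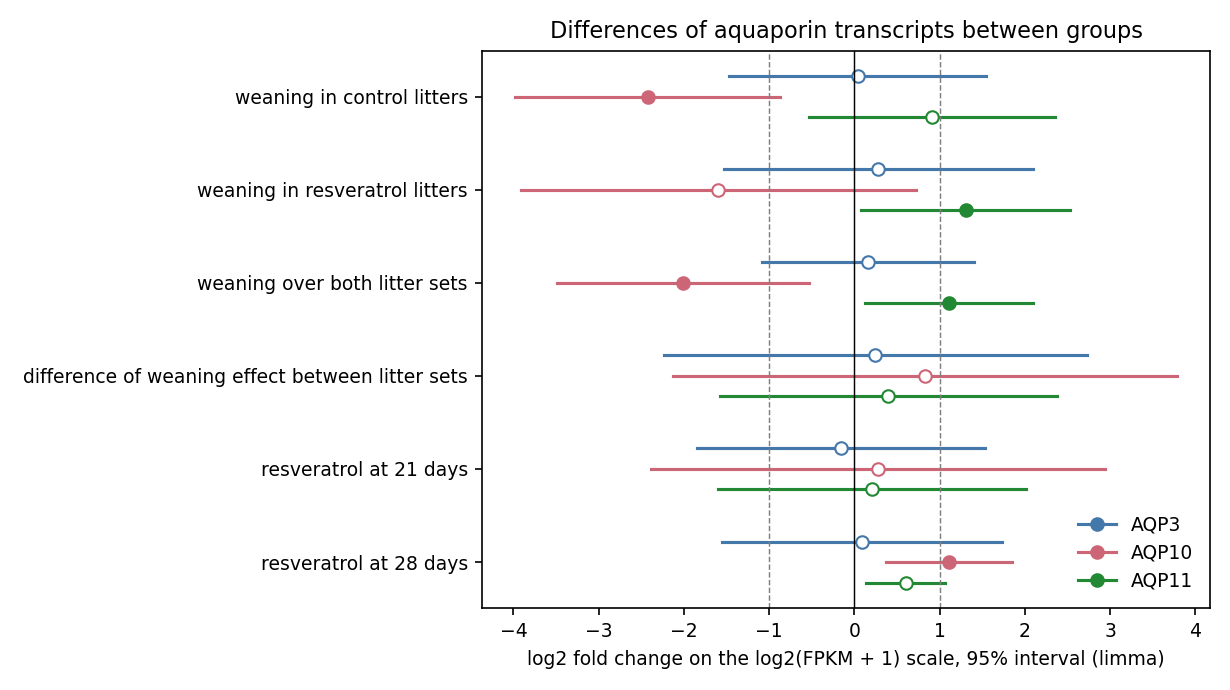
Log2 fold changes of AQP3, AQP10 and AQP11 on the log2(FPKM + 1) scale (horizontal axis) in 6 comparisons, as points with 95% intervals from limma. Filled points met the standard of the study, open points did not, and dashed lines mark the fold limit of 1 in each direction. The 5 filled points are AQP10 in control litters (-2.42), over both litter sets (-2.01) and with resveratrol at 28 days (1.11), and AQP11 in resveratrol litters (1.31) and over both litter sets (1.11).

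The 2 libraries low in AQP11 were low at 1 locus. The table divides AQP11 into 3 assembled loci, of which the first holds the annotated transcript and 1 assembled transcript and averaged 23.2 FPKM, while the others averaged 1.03 and 0.626 FPKM. At the first locus W_Con 1 had 2.28 and W_Res 3 had 1.96 FPKM, compared with 18.2 to 37.6 FPKM in the 10 other libraries. At the second locus these 2 libraries had 1.01 and 1.73 FPKM, inside the range of 0.320 to 1.92 FPKM of the others. At the third locus W_Con 1 had 0.471 FPKM, while W_Res 3 had 1.54 FPKM and was the highest, the 10 others being at 0.269 to 0.864. The neighbouring genes of AQP11 on the Sscrofa11.1 assembly, PAK1 and CLNS1A, were not low in both libraries together. PAK1 had 37.9 FPKM in W_Con 1 and 47.0 in W_Res 3, in a range of 21.6 to 47.0 over the 12 libraries. CLNS1A had 15.8 and 11.4 FPKM, in a range of 11.4 to 35.2. With the first locus alone the weaning change in resveratrol litters was 1.65 (unadjusted P = 0.0668, adjusted p = 0.426 in limma). Both low libraries had distal marker sums over 1000 FPKM (8400 and 6566), as did the 3 PW_Con libraries, in which AQP11 was at 19.5 to 29.7 FPKM. Among the 7 libraries with distal sums over 1000 FPKM, AQP11 was at 3.76 to 19.4 in sucking and at 19.5 to 39.3 in weaned piglets. Among the 5 others it was at 24.7 to 27.0 in sucking and at 38.4 to 38.6 in weaned piglets. This division was chosen after the data were seen, the nearest sucking and weaned libraries above the line had 19.4 and 19.5 FPKM, and both weaned libraries below it were PW_Res. How many of all genes separate the ages in the same way was not counted. A rise of AQP11 with gut position held fixed therefore cannot be read from these ranges.

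**Figure D4:**
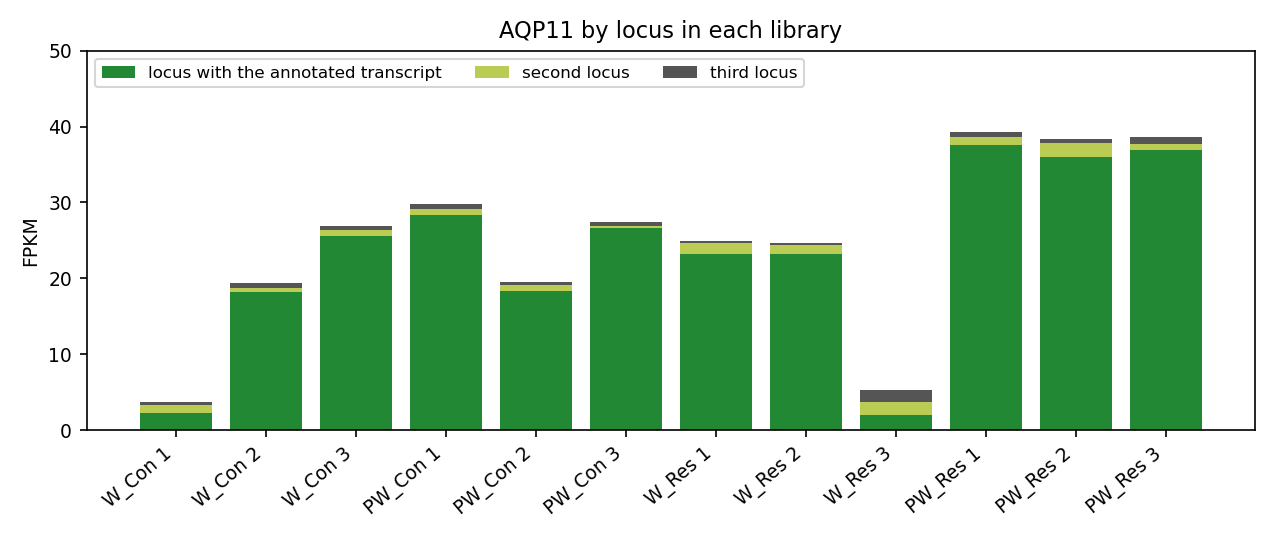
Stacked bars of AQP11 FPKM by assembled locus in each of the 12 libraries, on a linear axis from 0. The locus with the annotated transcript makes up nearly all of the level except in W_Con 1 (2.28 of 3.76 FPKM) and W_Res 3 (1.96 of 5.24 FPKM).

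With resveratrol at 28 days AQP11 had 38.4 to 39.3 FPKM in PW_Res against 19.5 to 29.7 FPKM in PW_Con. The groups did not overlap, again beside 5.44% of all genes. The mean was 1.52-fold higher, and the log2 fold change of 0.60 (standard error 0.20, unadjusted P = 0.0174, adjusted p = 0.404 in limma) was inside the fold limit of the standard. The exact two-sided permutation p was 0.1. At 21 days the AQP11 log2 fold change was 0.20 (95% interval -1.60 to 2.01). No aquaporin of the 3 tested met the standard with resveratrol at 21 days, where 4.47% of all genes did, and none of the 3 had an unadjusted P under 0.05 in limma.

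AQP3, the basolateral water and glycerol channel, met the standard in none of the 6 comparisons. It had 45.5, 119 and 45.0 FPKM in W_Con and 83.4, 129 and 24.3 FPKM in PW_Con. In resveratrol litters it had 80.8, 16.9 and 126 FPKM in W_Res and 132, 76.0 and 31.8 FPKM in PW_Res. Each group held a high and a low library, and the 4 means of 69.8 ± 42.6, 79.0 ± 52.7, 74.7 ± 54.9 and 80.0 ± 50.3 FPKM (SD, n = 3 each, in the order W_Con, PW_Con, W_Res, PW_Res) were closer to each other than libraries of 1 group. The log2 fold change with weaning was 0.04 in control litters (95% interval -1.47 to 1.54) and 0.28 in resveratrol litters (-1.53 to 2.10). Over both litter sets it was 0.16 (-1.08 to 1.40, adjusted p = 0.900 in limma). These intervals leave room for changes past the fold limit in either direction, and the sign of each value turned when single libraries were left out.

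AQP3 levels were set beside brush border markers, whose part in them was not tested. The 3 libraries lowest in AQP3 (W_Res 2, PW_Con 3 and PW_Res 3, with 16.9, 24.3 and 31.8 FPKM) also had the 3 lowest sums of villus markers (12 of 15 listed genes in the table), 3039, 3309 and 3268 FPKM. Most of this sum came from APOA4 and ANPEP (means of 2398 and 1618 FPKM), and single markers differed from it, with VIL1 at 910 FPKM in PW_Res 3 beside a mean of 814 over the 12 libraries. The 9 other libraries had villus sums of 4055 to 10115 FPKM. The next lowest in AQP3, W_Con 3 and W_Con 1 with 45.0 and 45.5 FPKM, had villus sums of 7321 and 5675 FPKM. These sums ranked 10 and 6 from the lowest of the 12 libraries, so that W_Con 3 stood apart from this order. Among 7743 candidate genes, those whose log2(FPKM + 1) followed AQP3 most closely over the 12 libraries were SLC26A6, an anion exchanger of the epithelial apical membrane (Pearson's r = 0.918, Spearman's rho = 0.951), TMEM92 (r = 0.845, rho = 0.909) and ZFYVE19 (r = 0.840, rho = 0.797). SLC26A6 was lowest in W_Res 2 with 2.05 FPKM and highest in PW_Res 1 with 19.1 FPKM, the same libraries in which AQP3 was lowest and highest. For AQP10 the closest were NR1I3, the nuclear receptor CAR (r = 0.913, rho = 0.930), PCSK4 (r = 0.887, rho = 0.846) and TLL2 (r = 0.879, rho = 0.853). NR1I3 had 0.292 to 1.51 FPKM in PW_Con and 17.5 FPKM in W_Res 2, where AQP10 was highest. For AQP11 they were MRPL14, a protein of the mitochondrial ribosome (r = 0.858), SKA2 (r = 0.857) and DDX49 (r = 0.857). The rank correlations of these 3 were lower for SKA2 and DDX49, with Spearman's rho of 0.839, 0.664 and 0.615. All 3 were lowest in W_Con 1 and next lowest in W_Res 3, the 2 libraries low in AQP11. In these libraries MRPL14 had 2.33 and 4.98 FPKM, SKA2 had 1.62 and 2.29, and DDX49 had 12.4 and 13.2. The 12 points of each of these correlations share libraries, cell makeup and the scaling of each library, and they are given as a description.

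AQP5, a channel best known from salivary and airway glands, was at 0 to 0.536 FPKM and was listed at 0 in 4 of 12 libraries. It had 0, 0 and 0.109 FPKM in W_Con, 0.278, 0.0808 and 0.536 in PW_Con, 0.210, 0.232 and 0 in W_Res and 0, 0.0368 and 0.200 in PW_Res. The groups overlapped in each comparison, and the level was too low for the tests across genes, which took genes with a mean of at least 0.5 FPKM. AQP4, the main water channel of brain astrocytes, was listed at 0 in 9 of 12 libraries and did not exceed 0.0246 FPKM. The files hold no counts, so that the smallest detectable level of these 2 genes is unknown. Of 8 other aquaporin family genes looked for, AQP6 and AQP9 were in the table, at 0 to 0.306 and 0 to 0.107 FPKM, and neither reached the minimum for testing. On the Sscrofa11.1 assembly AQP5 and AQP6 are neighbours, and both were below 1 FPKM in all 12 libraries.

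Genes that handle glycerol and monoacylglycerol, the solute side of the aquaglyceroporins, were counted from a list of 21, of which 16 were in the table and tested. Their median log2 fold change with weaning in control litters was -0.32 against -0.02 over all genes. In these litters 3 met the standard downwards and none upwards, where 1.82% of all genes met it downwards. They were GPD1 (-1.38) and GPD1L (-1.38), which interconvert glycerol 3-phosphate and dihydroxyacetone phosphate or belong to that family, and MOGAT1 (-1.30), a monoacylglycerol acyltransferase. In resveratrol litters the median was 0.08. Here 2 of the 16 met the standard downwards and none upwards, where 3.76% of all genes met it downwards. They were MGLL (-1.99), which splits monoacylglycerol into fatty acid and glycerol, and ABHD5 (-1.04), the coactivator of adipose triglyceride lipase. In this comparison 7 of 8 smooth muscle markers met the standard downwards. MGLL had 10.8 and 10.4 FPKM in W_Res 1 and W_Res 2, the 2 libraries with the highest smooth muscle sums. It had 0.793 FPKM in W_Con 3, which had the lowest sum. The part of muscle in the MGLL levels was not tested. Over both litter sets MGLL and ABHD5 met the standard downwards, beside 0.683% of all genes. ABHD5 was the 1 gene of the list with an adjusted p under 0.05 (log2 fold change -1.01, standard error 0.16, adjusted p = 0.0477 in limma). ABHD5 had 9.28 to 15.2 FPKM in the 6 sucking and 3.99 to 7.05 FPKM in the 6 weaned libraries. With resveratrol at 28 days 3 genes of the list met the standard upwards and none downwards, beside 0.856% of all genes upwards. They were GPD1L (1.41), GPD1 (1.24) and GPAT3 (1.04), and the median of the list was 0.24 against -0.07 over all genes. GPD1 had 7.24, 6.38 and 5.94 FPKM in PW_Con and 16.3, 20.6 and 13.8 FPKM in PW_Res. At 21 days, where 4.47% of all genes met the standard, MGLL was the 1 gene of the list that did so (1.41, higher with resveratrol). In that comparison 6 of 8 smooth muscle markers also met it upwards. The weaning effects on MGLL met the standard for the difference between litter sets (-1.86, adjusted p = 0.258 in limma), 1 of 16 genes beside 7.76% of all genes. The summed FPKM of this list overlapped between sucking and weaned piglets in both litter sets, and at 28 days it was 222 to 319 in PW_Con and 339 to 419 in PW_Res. DGAT1, with a mean of 140 FPKM, was the largest part of this sum. It changed by 0.33 with resveratrol at 28 days (unadjusted P = 0.213 in limma). In that comparison 3 of 8 proximal markers met the standard upwards, and their part in these sums was not tested.

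Ion transporters and channels that set up the gradients water follows were counted from a list of 30, of which 24 were in the table and 19 tested. In control litters KCNN4, a calcium-activated potassium channel, met the standard upwards with weaning (1.27). The sodium-hydrogen exchanger SLC9A2 (-1.63) and the sodium bicarbonate cotransporter SLC4A4 (-1.20) met it downwards, which makes 3 of 19 beside 3.31% of all genes. The paper lists KCNN4 among the down-regulated genes of the salivary secretion pathway. Here KCNN4 had 2.80, 2.84 and 0.582 FPKM in W_Con and 10.8, 2.91 and 6.01 FPKM in PW_Con. SLC9A2 had 31.6, 33.4 and 90.1 FPKM in W_Con and 14.8, 26.1 and 7.07 FPKM in PW_Con. None of the 19 met the standard with weaning in resveratrol litters, where 4.75% of all genes did and 4 of the 19 had an unadjusted P under 0.05. Over both litter sets 1 of the 19, SLC4A4, met the standard (-1.04), beside 1.42% of all genes. The weaning effects on SLC9A2 differed between litter sets by 2.31 on the log2 scale (unadjusted P = 0.00344, adjusted p = 0.251 in limma), and 7.76% of all genes met the standard for this difference, while no aquaporin did. With resveratrol at 21 days SLC9A2 (-1.64) and ATP1B1, the beta subunit of the sodium pump (-1.53), met the standard, 2 of 19 beside 4.47% of all genes. At 28 days none met the standard, which 1.81% of all genes did. Of a list of 16 genes of aquaporin trafficking and osmotic response, 11 were in the table and 9 were tested. None of these 9 met the standard in the weaning comparisons or with resveratrol at either age, and NFAT5, the transcription factor of the response to hypertonicity, did so for the difference between litter sets (1.21). In all, the 3 aquaporins gave 18 tests in 6 comparisons, of which 6 had an unadjusted P under 0.05 in limma, 5 met the standard and 0 had an adjusted p under 0.05, the lowest being 0.161. With a linear model of the kind the Ballgown package fits, with a library-size covariate, AQP10 in control litters kept its call (log2 fold change -2.59, unadjusted P = 0.0262) and the 4 other calls were lost. The log2 fold changes of those 4 kept their direction, with -2.32 for AQP10 and 0.87 for AQP11 over both litter sets, 2.95 for AQP11 in resveratrol litters and 0.42 for AQP10 with resveratrol at 28 days. Without a filter on low FPKM the call of AQP11 in resveratrol litters was also lost (unadjusted P = 0.0589 in limma). Over all genes the share with an unadjusted P under 0.05 was 17.7% and 13.3% with weaning in control and resveratrol litters, 19.0% over both, 13.7% for the difference, 13.3% with resveratrol at 21 days and 10.2% at 28 days. The share with an adjusted p under 0.05 in limma was 0.00768% with weaning in resveratrol litters, 0.0776% over both and 0.00808% with resveratrol at 28 days, and 0% in the other 3 comparisons.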

How the data were processed

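RNA from jejunum of 12 piglets was sequenced by the authors (poly(A), paired-end) in 4 groups of 3, taken from the labels. The deposited values are FPKM per assembled locus, which the authors made with StringTie. The processing notes name HISAT2 2.0, Bowtie 0.12.2, StringTie 1.3.0 and build Sscrofa10.2, while the methods name TopHat. The notes also list mm8, a mouse build. The paper covers the 6 control libraries. The files hold no counts, so that read depth per gene is unknown and no counting interval is given. FPKM summed to 313171 to 334469 per library. Of 41264 loci, 17650 (42.8%) have no gene name and were left out. Loci sharing a name were summed.

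Tests used R 4.3.3 and limma 3.58.1 (eBayes with a trend) on log2(FPKM + 1), for genes averaging at least 0.5 FPKM over the libraries fitted, with Benjamini-Hochberg adjustment over all genes tested. The call standard was the study's (unadjusted P under 0.05, absolute log2 fold change above 1). Exact permutation tests over libraries were two-sided. P-values set differences against the spread between these piglets and treat the libraries as independent, although it is not known which of them shared a litter. In simulated data for the control weaning comparison (12611 genes, normal noise), 178 of 200 genes given a log2 fold change of 2 met the standard. That change is larger than those called for AQP11 (1.31 and 1.11) and for AQP10 with resveratrol at 28 days (1.11). The share found at such smaller changes was not simulated. Ensembl identifiers used as names (6232) were given a symbol in 2089 cases for the gene lists. Aquaporins and lists were chosen with earlier results of these data known. Named were all aquaporins found, the 3 genes with the highest Pearson's r to each aquaporin with a mean of at least 1 FPKM (among genes with such a mean and a symbol), and up to 4 genes per list and comparison that met the standard. PAK1, CLNS1A and single markers were added after their values were seen. The marker lists written were villus, crypt, proximal, distal, goblet, endothelium, red blood cell, adipocyte, smooth muscle, glia and neuron, lymphocyte and exocrine pancreas.

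Alternatives were pseudocounts of 0.1 and 0.01, median-of-ratios and quantile scaling, no filter or one at 5 FPKM, eBayes without a trend, the Ballgown model, a block, the top locus per gene, a fit of all 12 libraries, and omission of each replicate in turn.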

Additional observations from a re-analysis of the deposited data

How the results depend on the processing

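AQP10 in control litters met the standard under all 17 alternatives. In resveratrol litters the number of aquaporins meeting the standard was 1, and it was 0 with no filter on low FPKM, with the Ballgown linear model, with the highest locus per gene and with all 12 libraries in the fit, 0 to 2 when single replicates were left out, and 2 without W_Res replicates 1 and 2, an alternative chosen after seeing the data that leaves W_Res 3 as the 1 library of its group and assumes that it varies like the other groups. Over both litter sets the number was 2, and it was 0 with the Ballgown model and 1 to 2 when single replicates were left out. With resveratrol at 28 days it was 1, and it was 0 with a minimum of 5 FPKM (where AQP10 was no longer tested), with the Ballgown model and with all 12 libraries, and 0 to 1 when single replicates were left out. It stayed 0 at 21 days and for the difference between litter sets. Unless stated, the cause was not tested.

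The Ballgown model, which adjusts for a library-size covariate, turned the log2 fold change of AQP3 to -1.51 in resveratrol litters, -0.19 over both, -0.36 for the difference and 0.60 at 21 days, that of AQP10 to 0.031 in resveratrol litters and that of AQP11 to -0.019 for the difference. With W_Res 3 alone in its group (without W_Res replicates 1 and 2), the library low in AQP11 and highest of W_Res in AQP3, AQP3 was -0.87 in resveratrol litters, -0.42 over both, -0.91 for the difference and 1.00 at 21 days, and AQP11 was -1.16 at 21 days. The 7 libraries with distal sums over 1000 FPKM were also chosen after seeing the data. They hold 1 library each of W_Res and PW_Res, so that their resveratrol weaning effect sets W_Res 3 against PW_Res 1. In these 7 libraries AQP3 was -0.064 over both, AQP10 -0.60 for the difference and AQP11 2.05 over both. AQP11 was 1.77 for the difference with W_Res 3 alone in its group, and AQP3 was 1.23 at 28 days with the Ballgown model. Leaving out single replicates gave AQP3 ranges of -0.46 to 0.72 in control litters, -0.55 to 0.86 in resveratrol litters, -0.26 to 0.50 over both, -0.59 to 0.82 for the difference, -0.73 to 0.68 at 21 days and -0.59 to 0.63 at 28 days. For the difference and at 21 days the ranges were -0.42 to 1.84 and -0.73 to 1.53 for AQP10, and -0.28 to 1.18 and -0.57 to 0.89 for AQP11. 

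The replicate numbers gave no sign of a pairing, as same-numbered libraries correlated at r = -0.26 to 0.30 and 5 of 18 pairs were over 0.1. In libraries that differ in makeup, such low correlations cannot exclude shared litters. At most 2 of 6 libraries in a comparison correlated best with their own number. The replicate block changed no aquaporin call, with 1 in control litters, 1 in resveratrol litters, 2 over both, 0 for the difference, 0 at 21 days and 1 at 28 days, and the count over all genes went from 418 to 444 in control litters.

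The share of all genes called, beside which the aquaporins are read, moved more. The 418 genes in control litters became 853 and 882 with pseudocounts of 0.1 and 0.01, and 227 with a minimum of 5 FPKM. The 618 in resveratrol litters became 230 with the Ballgown model, 388 without W_Res replicate 2 and 1049 without W_Res replicate 1. Over all alternatives this count ran from 230 to 1181. The other counts ranged over the alternatives from 118 to 642 over both litter sets, 284 to 1367 for the difference, 175 to 1046 at 21 days and 122 to 513 at 28 days.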

Other observations

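Markers of other cell types met the standard in some comparisons in which the aquaporins were read, and rose and fell here count such markers. The standard was met by 4.47% of all genes with resveratrol at 21 days and by 1.81% at 28 days. With weaning it was met by 3.31% in control and 4.75% in resveratrol litters. With resveratrol at 21 days 6 of 8 smooth muscle markers rose (median log2 fold change 1.99), 4 of 9 lymphocyte markers fell (-0.98) and 3 of 12 villus markers fell (-0.82), while 1 of 7 endothelial and 1 of 4 glial and neuronal markers rose. With weaning in resveratrol litters 2 of 4 glial and neuronal markers (median -1.09), 2 of 7 endothelial markers (-0.77), 1 of 3 red blood cell markers and 1 of 4 adipocyte markers fell. In control litters 1 of 4 goblet cell and 1 of 11 lymphocyte markers rose with weaning. The lymphocyte marker was CD79B, with 37.5 FPKM in PW_Con 2 beside 2.25 and 3.29 FPKM in PW_Con 1 and PW_Con 3. From the same list CD3E (-0.74), CD3D (-0.63) and GZMA (-0.67) went down inside the fold limit, with an unadjusted P under 0.05 in limma. With resveratrol at 28 days 1 of 11 lymphocyte markers (median -0.93), 1 of 9 distal markers (-0.85) and 1 of 9 crypt markers fell. No marker of crypt and cell division met the standard in the weaning comparison of either litter set (9 tested), and none of exocrine pancreas in those or with resveratrol at either age (2 tested).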
